A study of Mus musculus with 6 samples.

Results

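The genes described here are 37 genes of glycolysis and of the response to low oxygen, measured in whole embryonic lung of the mouse at E18.5, on the eve of birth. They were chosen by name, with earlier results of these data known, from 18217 genes that could be named on the array. All 37 had a probe well above background on all 6 arrays. The 3 Dppa2 KO embryos were 15-1Flox/Flox and 15-2-/-, and the 3 WT embryos were 15-1+/+ and 15-2+/+, where ECAT15-1 is Dppa4 and ECAT15-2 is Dppa2. Every KO embryo thus carried the floxed ECAT15-1 allele along with the null ECAT15-2 allele, and the labels give no promoter or cell type that would confine the loss of Dppa2 to the lung. Parents were heterozygous at both loci. The line began with 129Sv embryonic stem cells, was bred to C57/BL6 and was mated with mice that expressed a Cre or FLPe transgene on a background not known, so the embryos had a mixed genetic background. Each array held the RNA of 1 embryo's lungs, with the litters not given in the labels, and the p-values measure the spread between these lungs.

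Glycolysis splits glucose into pyruvate in the cytosol, and lactate dehydrogenase turns pyruvate into lactate where oxygen is scarce or where demand for carbon outpaces the mitochondria. In low oxygen the prolyl hydroxylases no longer mark the HIF alpha subunits for destruction. These subunits then pair with Arnt and bind a short DNA core near genes for glucose uptake, glycolysis, pH control, collagen hydroxylation and the removal of mitochondria. The fetal lung develops in low oxygen before the first breath, and Epas1 is known there from endothelium and from the maturation of surfactant-producing cells.

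The 37 genes comprise 2 glucose transporters, 15 glycolytic enzymes, 3 genes of pyruvate and lactate handling, 2 regulators of fructose 2,6-bisphosphate, 12 other hypoxia-induced genes and the 3 HIF alpha subunits. The promoter windows of 7 of them are printed, chosen by the levels given below and not by motif. Ankrd37, Slc16a3, Adm, Egln3 and Bnip3 had, with Ndrg1, the widest ranges over the KO lungs, and Eno2 and Pfkfb4 had the largest differences between the groups. The windows run 5′ to 3′, come from RefSeq on GRCm38.p6 and span 300 bases each, most of them before the annotated start. Capitals mark each match to ACGTG or GCGTG on either strand, the core bound by HIF, with overlapping matches joined, and the Eno2 window holds none.
Ankrd37, chr8:45999801-46000100, minus strand: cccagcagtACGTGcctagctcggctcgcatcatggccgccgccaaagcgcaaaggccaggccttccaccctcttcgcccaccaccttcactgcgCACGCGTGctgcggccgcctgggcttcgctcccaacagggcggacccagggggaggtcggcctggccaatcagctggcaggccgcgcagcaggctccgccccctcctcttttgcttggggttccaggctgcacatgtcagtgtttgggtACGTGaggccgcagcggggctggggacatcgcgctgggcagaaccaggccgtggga
Slc16a3, chr11:120948817-120949116, plus strand: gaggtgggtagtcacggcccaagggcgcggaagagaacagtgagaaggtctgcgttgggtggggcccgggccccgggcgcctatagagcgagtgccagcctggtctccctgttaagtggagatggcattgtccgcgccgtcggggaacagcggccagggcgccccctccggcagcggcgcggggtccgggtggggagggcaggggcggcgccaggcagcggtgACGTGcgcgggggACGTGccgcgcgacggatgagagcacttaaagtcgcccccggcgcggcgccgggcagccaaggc
Adm, chr7:110627407-110627706, plus strand: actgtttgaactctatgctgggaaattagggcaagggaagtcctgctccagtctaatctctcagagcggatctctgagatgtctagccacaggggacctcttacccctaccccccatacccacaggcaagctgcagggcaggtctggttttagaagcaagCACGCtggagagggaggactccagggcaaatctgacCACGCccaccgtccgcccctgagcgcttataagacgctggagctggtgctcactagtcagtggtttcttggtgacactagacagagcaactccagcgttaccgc
Egln3, chr12:54203825-54204124, minus strand: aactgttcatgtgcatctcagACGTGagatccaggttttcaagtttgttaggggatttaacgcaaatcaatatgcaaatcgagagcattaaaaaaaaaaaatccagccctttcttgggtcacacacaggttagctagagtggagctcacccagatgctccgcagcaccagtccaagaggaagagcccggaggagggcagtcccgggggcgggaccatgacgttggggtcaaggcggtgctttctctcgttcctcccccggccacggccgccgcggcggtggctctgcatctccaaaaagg
Bnip3, chr7:138909457-138909756, minus strand: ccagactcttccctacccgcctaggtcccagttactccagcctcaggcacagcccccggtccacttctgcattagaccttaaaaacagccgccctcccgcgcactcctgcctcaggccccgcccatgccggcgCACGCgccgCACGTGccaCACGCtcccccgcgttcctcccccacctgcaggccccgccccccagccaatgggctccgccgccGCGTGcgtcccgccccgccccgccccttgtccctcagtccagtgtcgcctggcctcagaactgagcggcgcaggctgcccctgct
Eno2, chr6:124769624-124769923, minus strand: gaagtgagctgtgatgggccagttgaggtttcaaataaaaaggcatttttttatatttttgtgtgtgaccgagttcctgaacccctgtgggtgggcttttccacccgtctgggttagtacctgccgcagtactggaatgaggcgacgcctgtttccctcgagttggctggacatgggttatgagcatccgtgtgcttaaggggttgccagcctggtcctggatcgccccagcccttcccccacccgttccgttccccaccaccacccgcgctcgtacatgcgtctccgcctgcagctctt
Pfkfb4, chr9:108991652-108991951, plus strand: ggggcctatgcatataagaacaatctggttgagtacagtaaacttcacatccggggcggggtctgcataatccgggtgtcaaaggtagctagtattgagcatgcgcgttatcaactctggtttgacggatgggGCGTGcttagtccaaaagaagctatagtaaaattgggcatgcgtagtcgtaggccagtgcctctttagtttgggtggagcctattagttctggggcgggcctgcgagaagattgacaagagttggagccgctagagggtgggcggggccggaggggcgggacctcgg
A RefSeq window was found for 33 of the 37 genes, 46 windows in all, and Slc2a3, Bnip3l, Ndrg1 and Epas1 had none in the table. Either motif stood in 38 of these 46 windows (82.6%), against 14380 of 32851 windows of all genes (43.8%). ACGTG alone was in 56.5% of the members' windows and 19.6% of all windows, and GCGTG in 58.7% and 32.4%. All 10 other hypoxia-induced genes with a window held a motif, as did 12 of the 15 glycolytic enzymes in at least 1 window. Counted the same way, 12628 of 27025 genes held one. By window, the enzymes had a motif in 18 of 25 (72%). The motifs contain CG, and the windows of the members had a median GC content of 63.5%, against 52.7% for all windows. The part of base composition in these shares was not tested, and a match is a description of the letters and not a bound site.

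Between 63.3% and 68.8% of 41174 probes per array lay well above background, with the lowest share in KO lung 1 and the highest in KO lung 2. Of 19855 features tested, 143 (0.720%) were higher and 123 (0.619%) lower in KO lungs at an adjusted p under 0.05 (limma, Benjamini-Hochberg over all features). This split depended on the scaling, with 55 higher and 133 lower under quantile normalization, 87 and 231 under median scaling, 59 and 137 with the authors' deposited log2 values, and 70 and 155 after normexp correction. The Dppa2 probe, above background on all arrays, read -4.94, -4.98 and -4.08 in the KO lungs, against -3.25, -3.52 and -3.57 in the WT lungs, on a log2 scale where 0 is the array's 75th percentile of intensity. Its difference of -1.22 ± 0.25 (SE) missed the threshold (limma adjusted p = 0.0603), and the Dppa4 probe was below background throughout. KO lungs 1 and 2 shared slide 3, KO lung 3 shared slide 1 with WT lungs 1 and 2, and WT lung 3 was alone on slide 2 among these samples. WT lungs 1 and 2 were the 2 with Y-linked transcripts (Ddx3y, Uty, Kdm5d and Eif2s3y) above background, so sex and genotype were not balanced. Among the marker lists, 11 of 16 measured cardiac muscle genes fell in KO lungs, and the median difference of the 16 was -1.52. Their summed linear intensity relative to the 75th percentile ran from 35.5 to 49.2 in KO lungs and from 62.1 to 72.6 in WT lungs. This sum weighs the brightest gene, Myh7, the most, and Myh7 differed by only -0.29 (limma adjusted p = 0.452). Summed lung epithelial markers ran from 328 to 371 in KO lungs and from 332 to 393 in WT lungs, with 0 of 10 passing the test. Summed proliferation markers were between 59.2 and 74.1 in KO lungs, against 34.9, 35.2 and 65.7 in WT lungs 1, 2 and 3.

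None of the 37 genes changed between Dppa2 KO and WT lungs at an adjusted p under 0.05 (limma, 3 lungs each). At an unadjusted p under 0.05 there were 4, Pfkfb4, Epas1, Eno2 and Hk1, which is 10.8% of the genes, while 25.7% of all features met that limit. The same 4 genes were those whose KO and WT lungs did not overlap, again 10.8%, against 31.3% of all features. Under median scaling 11 of the 37 genes (29.7%) and 7338 of the 19855 features (36.96%) did not overlap. Differences, always KO minus WT, lay between -0.62 and 0.64 on the log2 scale, and 17 were above 0 and 20 below, beside 51.0% above 0 among all features. The median difference of the 37 genes was -0.01, and that of all features was 0.01. For 35 of the 37 genes the 95% confidence interval of the difference lay within a 2-fold change in either direction, as it did for 82.9% of all features. The exceptions were Eno2, with an upper bound of 1.12, and Ankrd37, with a lower bound of -1.43. In a bulk lung, fewer cells of a type and less RNA per cell cannot be told apart.

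**Figure D1:**
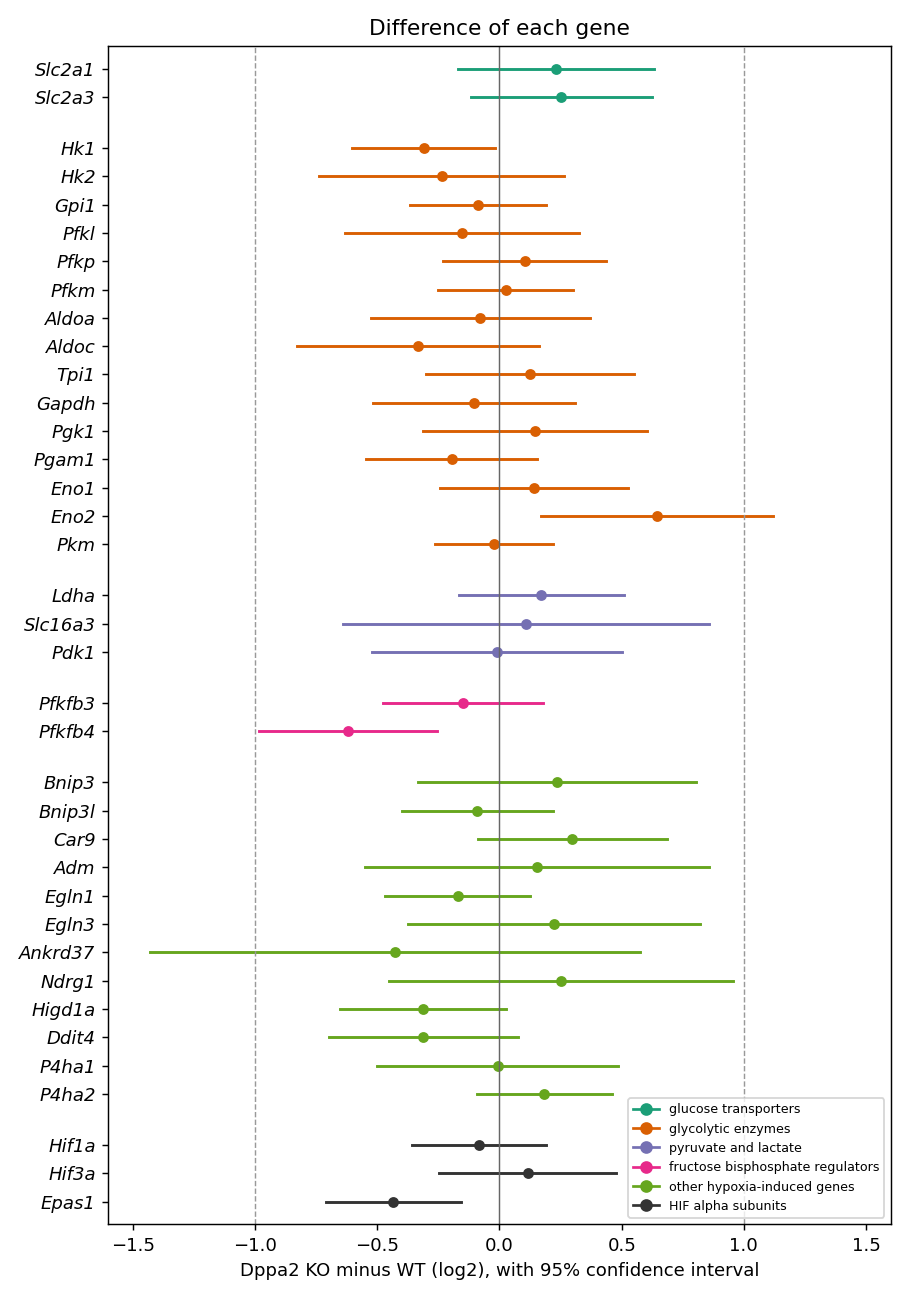
Difference of each of the 37 genes, KO minus WT (log2, horizontal axis), with its 95% confidence interval as a bar, grouped by role. The intervals of Pfkfb4, Epas1, Eno2 and Hk1 leave out 0, and no gene passed the adjusted threshold of 0.05.

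Both glucose transporters had differences above 0 without passing the test. Slc2a1, the transporter GLUT1 of most cells, read 2.25, 2.78 and 2.41 in the KO lungs, against 2.41, 2.29 and 2.05 in the WT lungs, a difference of 0.23 ± 0.17 (SE, n = 3 each). KO lung 2 was the highest of the 6 and WT lung 3 the lowest, and the groups overlapped. Slc2a3, the high-affinity transporter GLUT3, read -0.83, -1.04 and -1.08 in the KO lungs and -0.94, -1.40 and -1.36 in the WT lungs, a difference of 0.25 ± 0.16. WT lung 1 lay among the KO lungs, so these groups overlapped too.

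The 15 glycolytic enzymes had a median difference of -0.08, with 6 above 0 and 9 below, and 0 of them passed the test. Hexokinase traps glucose in the cell as glucose 6-phosphate. Hk1, its widely expressed form, read 2.57, 2.65 and 2.79 in the KO lungs and 3.07, 3.06 and 2.80 in the WT lungs, a difference of -0.31 ± 0.12 (limma unadjusted p = 0.0405, adjusted p = 0.176). The KO lungs lay below the WT lungs, but KO lung 3 and WT lung 3 were nearly equal, 0.02 apart, and 2 of the 6 Hk1 probes were below background on all arrays. Hk2, the hypoxia-induced hexokinase, read 1.57, 1.82 and 1.56 in the KO lungs, against 1.97, 2.25 and 1.44 in the WT lungs. WT lung 3 was the lowest of all for Hk2, and the difference of -0.24 ± 0.21 was near its error.

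The next steps rearrange and split the sugar. Gpi1, which turns glucose 6-phosphate into fructose 6-phosphate, read 5.59, 5.86 and 5.72 in the KO lungs and 5.79, 5.91 and 5.73 in the WT lungs, a difference of -0.09 ± 0.12. Of the phosphofructokinases, which commit the sugar to glycolysis, liver-type Pfkl read 1.77, 2.56 and 2.29 in the KO lungs and 2.38, 2.44 and 2.25 in the WT lungs. The KO lungs bracketed the WT lungs, with a difference of -0.15 ± 0.20. Platelet-type Pfkp and muscle-type Pfkm differed by 0.10 ± 0.14 and 0.03 ± 0.12, and a dimmer Pfkp probe gave -0.23. Aldoa, the main aldolase, read 6.38, 7.04 and 6.81 in the KO lungs and 6.78, 7.03 and 6.67 in the WT lungs, a difference of -0.08 ± 0.19. Aldoc, the brain-type aldolase, read 0.80, 1.57 and 1.30 in the KO lungs, against 1.58, 1.73 and 1.36 in the WT lungs. It had the most negative difference of the enzymes, -0.33 ± 0.21 (limma adjusted p = 0.357), and KO lung 1 lay well below the other lungs.

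The lower, energy-yielding steps showed the same mixture. Tpi1, which interconverts the triose phosphates, read 4.58, 5.25 and 4.92 in the KO lungs and 4.67, 4.79 and 4.91 in the WT lungs. Gapdh, often used as a loading control, read 5.21, 5.79 and 5.67 in the KO lungs, against 5.51, 5.80 and 5.66 in the WT lungs. Pgk1, the enzyme that makes ATP from bisphosphoglycerate, read 4.54, 5.25 and 4.81 in the KO lungs and 4.54, 4.80 and 4.83 in the WT lungs. KO lung 1 was at or near the bottom for all of these, and KO lung 2 was at or near the top. The differences were 0.13 ± 0.18 for Tpi1, -0.11 ± 0.17 for Gapdh and 0.15 ± 0.19 for Pgk1, each smaller than its error. Pgam1, a phosphoglycerate mutase, differed by -0.19 ± 0.15 and Pkm, the pyruvate kinase, by -0.02 ± 0.10, with KO levels of 2.57, 2.73 and 2.65 and WT levels of 2.65, 2.74 and 2.63 for Pkm. Pkm was among the least variable of the enzymes over all lungs.

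The enolases, which make phosphoenolpyruvate, included the largest positive difference of the 37 genes. Eno2, the neuronal and neuroendocrine form, read -3.22, -2.58 and -3.16 in the KO lungs, against -3.64, -3.83 and -3.42 in the WT lungs. All KO lungs were above all WT lungs, at a difference of 0.64 ± 0.20, or 1.56-fold, which missed the adjusted threshold (limma unadjusted p = 0.0148, adjusted p = 0.113). A second Eno2 probe gave 0.57. Within slide 1 the Eno2 difference was also 0.57, and between KO lung 3 and WT lung 3 it was 0.26. Eno1, the general enolase, read 0.87, 1.45 and 1.31 in the KO lungs and 1.03, 1.03 and 1.14 in the WT lungs. Its WT lungs lay close together inside the KO range, and the difference was 0.14 ± 0.16.

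**Figure D2:**
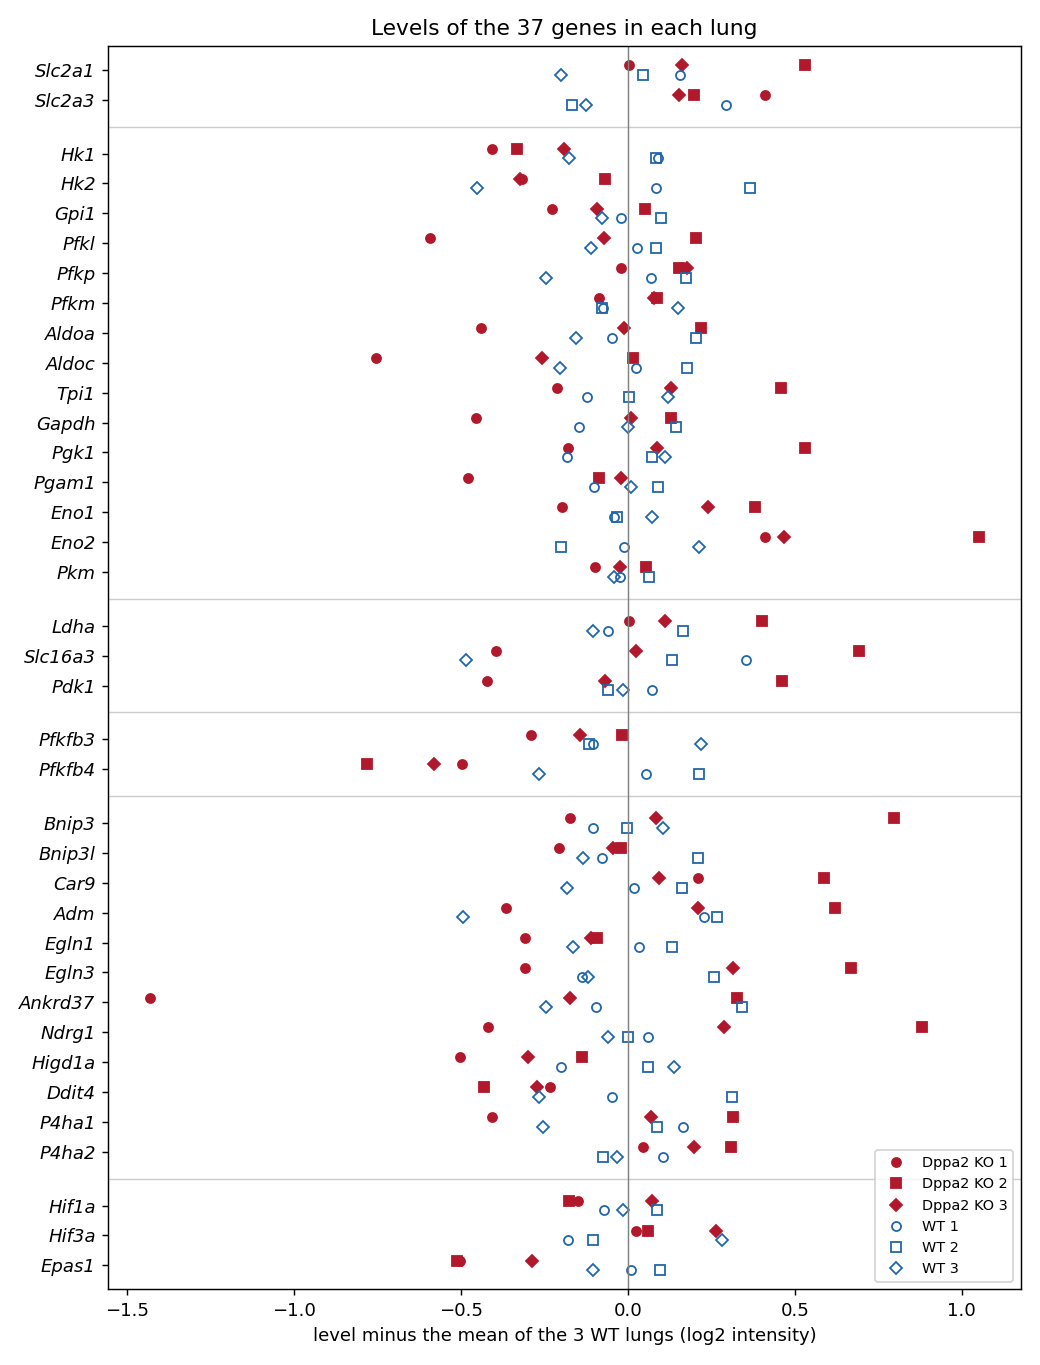
Level of each of the 37 genes in every lung minus that gene's mean over the WT lungs (log2 intensity, horizontal axis), grouped by role, 1 point per lung with KO above WT. In 26 of the 37 genes the KO points span a wider range than the WT points, as for Ndrg1, whose KO lungs spanned 1.30 and WT lungs 0.12.

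The genes that handle pyruvate and lactate had KO lung 2 as the highest lung in 3 of 3 cases. Ldha, the lactate-forming subunit of lactate dehydrogenase, read 5.59, 5.98 and 5.69 in the KO lungs, against 5.52, 5.75 and 5.48 in the WT lungs, and differed by 0.17 ± 0.14. A second Ldha probe gave -0.04. Slc16a3, the lactate exporter MCT4, read 0.62, 1.71 and 1.04 in the KO lungs and 1.37, 1.15 and 0.53 in the WT lungs. Its KO lungs 1 and 2 were 1.09 apart, far more than the group difference of 0.11 ± 0.32. Pdk1, the kinase that shuts the pyruvate dehydrogenase gate into mitochondria, read 0.85, 1.73 and 1.20 in the KO lungs, against 1.34, 1.21 and 1.26 in the WT lungs. Its difference was -0.01 ± 0.22, with the WT lungs in the middle of the KO range, and a second probe gave 0.44.

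Pfkfb3 and Pfkfb4 make fructose 2,6-bisphosphate, the activator of phosphofructokinase, and also degrade it. Pfkfb4 read 2.19, 1.90 and 2.11 in the KO lungs and 2.74, 2.90 and 2.42 in the WT lungs. All 3 KO lungs lay below all 3 WT lungs, by -0.62 ± 0.15 or 1.54-fold, with the smallest p of the 37 genes (limma unadjusted p = 0.00502, adjusted p = 0.0801). Without WT lung 3 the difference was -0.75 and passed the threshold (limma adjusted p = 0.0324). There, however, every remaining WT lung and no KO lung had Y-linked signal above background. The same setting called 1929 of 20053 features, beside 266 of 19855 with all lungs. On slide 1 alone the Pfkfb4 difference was -0.71. Between KO lung 3 and WT lung 3, a pair with no Y-linked signal above background, it was -0.31. Pfkfb3, the form best known from hypoxia and proliferation, read 1.59, 1.86 and 1.74 in the KO lungs, against 1.77, 1.76 and 2.10 in the WT lungs, with overlapping groups and a difference of -0.15 ± 0.14 (0.09 at another probe).

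The 12 other hypoxia-induced genes had a median difference of 0.07, which was -0.06 under median scaling. Of them 0 passed the test, and 0 had groups that did not overlap, beside 31.3% of all features. Among the genes for mitochondrial removal, Bnip3 read 3.60, 4.56 and 3.85 in the KO lungs and 3.66, 3.77 and 3.87 in the WT lungs. Its difference of 0.24 ± 0.24 came with KO lung 2 far above the other lungs. Bnip3l, its relative NIX, differed by -0.09 ± 0.13. Higd1a, a small mitochondrial protein induced by low oxygen, read 2.66, 3.02 and 2.86 in the KO lungs, against 2.96, 3.22 and 3.30 in the WT lungs, a difference of -0.31 ± 0.14 (limma adjusted p = 0.223). KO lung 2 overlapped with WT lung 1.

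The oxygen-sensing hydroxylases went apart without either passing the test. Egln1, the main prolyl hydroxylase PHD2, read 1.09, 1.31 and 1.29 in the KO lungs and 1.44, 1.54 and 1.24 in the WT lungs, a difference of -0.17 ± 0.13. Egln3, the strongly inducible PHD3, read 0.95, 1.92 and 1.57 in the KO lungs, against 1.12, 1.51 and 1.14 in the WT lungs, a difference of 0.22 ± 0.25. For Egln3, KO lung 1 was below all WT lungs and KO lungs 2 and 3 above them. P4ha1 and P4ha2, the catalytic subunits of the collagen prolyl hydroxylase, differed by -0.01 ± 0.21 and 0.18 ± 0.12, and another P4ha1 probe gave 0.03.

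Car9, the surface carbonic anhydrase used as a marker of hypoxic cells, read -3.23, -2.85 and -3.34 in the KO lungs and -3.42, -3.28 and -3.62 in the WT lungs. It had the most positive difference of the 12, 0.30 ± 0.16 (limma adjusted p = 0.295), and WT lung 2 lay above KO lung 3. Adm, the vasodilator peptide adrenomedullin, read -0.89, 0.09 and -0.32 in the KO lungs, against -0.30, -0.26 and -1.02 in the WT lungs. Each group held lungs far apart for Adm, and the difference was 0.15 ± 0.30. Ankrd37, an ankyrin repeat protein and direct HIF target, read 1.33, 3.09 and 2.59 in the KO lungs and 2.66, 3.10 and 2.51 in the WT lungs. KO lung 1 alone was low, and the difference of -0.43 ± 0.43 had the widest interval of the 37 genes, -1.43 to 0.58. Ndrg1, a stress and hypoxia response gene, read 3.03, 4.33 and 3.74 in the KO lungs, against 3.51, 3.45 and 3.39 in the WT lungs, a difference of 0.25 ± 0.30. Its 3 WT lungs were tightly grouped and sat between KO lungs 1 and 3. Ddit4, the mTOR inhibitor REDD1, read 4.82, 4.62 and 4.79 in the KO lungs and 5.01, 5.37 and 4.79 in the WT lungs, a difference of -0.31 ± 0.16 (limma adjusted p = 0.276). It was 1 of 5 members in which KO lung 2 did not exceed KO lung 1.

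Of the HIF alpha subunits, Epas1 (HIF-2 alpha) had the largest difference. It read 4.80, 4.79 and 5.01 in the KO lungs, against 5.31, 5.40 and 5.20 in the WT lungs. All KO lungs were below all WT lungs, by -0.43 ± 0.12 or 1.35-fold, short of the threshold (limma unadjusted p = 0.00748, adjusted p = 0.0901), and a second probe gave -0.58. Within slide 1 the Epas1 difference was -0.34, and between KO lung 3 and WT lung 3 it was -0.18. Summed endothelial markers were 81.8, 71.5 and 88.9 in the KO lungs and 85.9, 71.3 and 89.8 in the WT lungs. Of the 8 endothelial genes 0 passed the test, and 3 (37.5%, beside 31.3% of all features) had groups that did not overlap. These were Car4 with a difference of -0.79, Pecam1 with 0.57 and Tek with 0.36. The part of endothelial content in the Epas1 values was not tested. Hif1a, the broadly acting alpha subunit, read 1.31, 1.28 and 1.53 in the KO lungs and 1.39, 1.55 and 1.44 in the WT lungs, a difference of -0.08 ± 0.12. Hif3a, which lacks part of the activating region and can restrain the others, differed by 0.12 ± 0.15, and its other probes gave -0.04 and 0.61.

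Set side by side, the glycolytic enzymes and the other hypoxia-induced genes had median differences of -0.08 and 0.07, each within the spread over single lungs. Leaving out KO lung 1 moved the enzymes' median to 0.07, and the hypoxia-induced genes' median was -0.10 without KO lung 2 and -0.11 without WT lung 3. Within slide 1, KO lung 3 against WT lungs 1 and 2 gave medians of -0.02 for the enzymes and -0.05 for the other hypoxia-induced genes. KO lung 3 against WT lung 3 gave 0.01 and 0.16. The 37 genes together had medians of -0.03 within slide 1 and 0.06 in that pair.

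The 37 genes had a median size of group difference of 0.17, against 0.21 for all features. The range over the 3 KO lungs had a median of 0.46 for the 37 genes, against 0.34 over the 3 WT lungs. Over all features these median ranges were 0.32 and 0.29. The KO range was the wider in 26 genes (70.3%), beside 53.5% of all features. The 15 enzymes had median ranges of 0.58 in KO lungs and 0.27 in WT lungs, and the 12 other hypoxia-induced genes 0.61 and 0.34. KO lungs 1 and 2 made up most of this spread. KO lung 2 exceeded KO lung 1 in 32 of 37 genes (86.5%), against 50.8% of all features, and in 15 of 15 enzymes and 11 of 12 other hypoxia-induced genes. KO lung 2 was the highest of all 6 lungs in 17 genes (45.9%, beside 22.4% of all features), and KO lung 1 was the lowest in 21 (56.8%, beside 20.4%). Both held for 9 genes (24.3%, beside 3.65%), namely Pfkl, Aldoa, Tpi1, Eno1, Pdk1, Bnip3, Egln3, Ndrg1 and P4ha1. These counts describe 6 lungs, and the comparison of KO lungs 1 and 2 rests on those lungs alone. The genes are not independent of each other, and the counts were not tested.

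**Figure D3:**
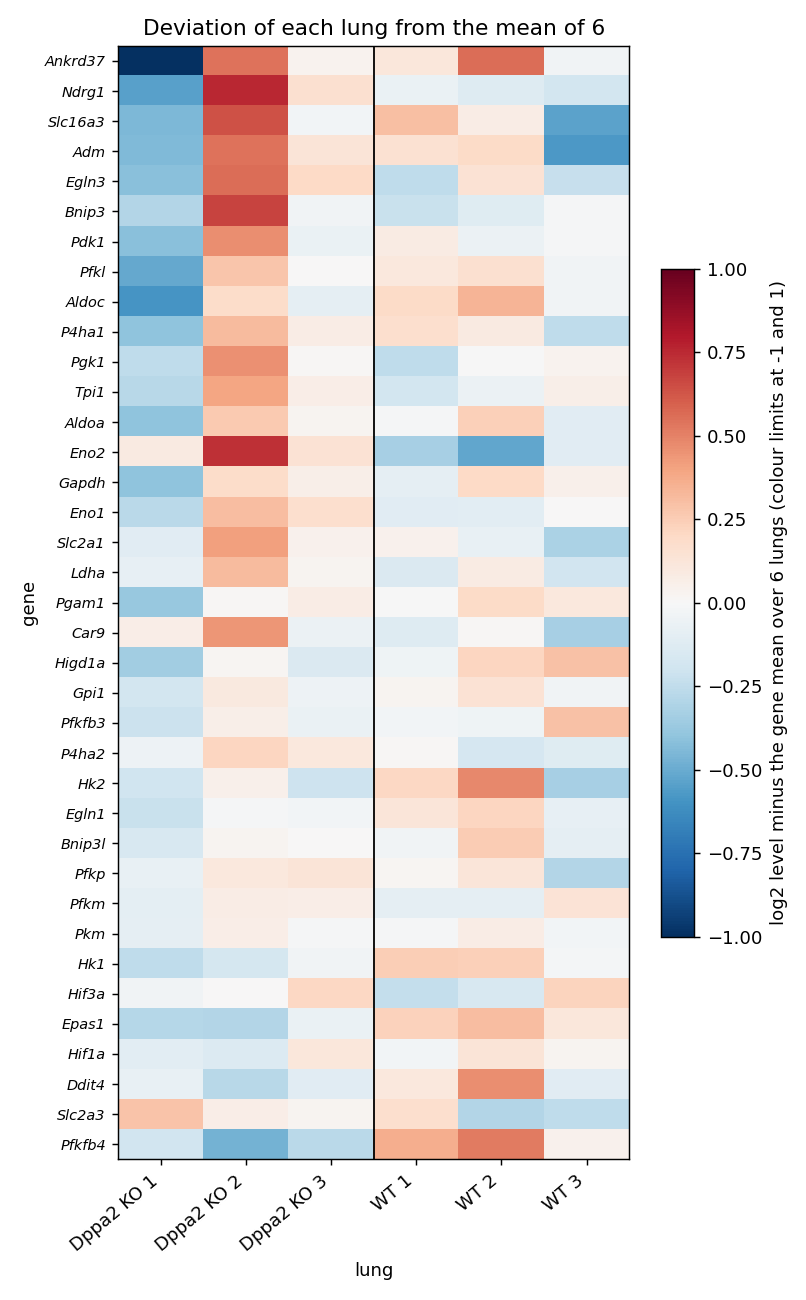
Level of each gene in a lung minus that gene's mean over the 6 lungs, shown as colour (log2, with fixed colour limits). Lungs are columns, KO left and WT right. Genes are rows, sorted by KO lung 2 minus KO lung 1 with the highest at the top. Median deviations of the 37 genes were -0.25, 0.18 and 0.03 in KO lungs 1, 2 and 3 and -0.00, 0.12 and -0.03 in WT lungs 1, 2 and 3.

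The enzymes and the hypoxia-induced genes shared this pattern. KO lung 2 minus KO lung 1 had a median of 0.58 over the enzymes and 0.55 over the other hypoxia-induced genes, while over all features it was 0.01. The gap reached 2-fold in 3 of the 37 genes (8.1%), Ankrd37 at 1.76, Ndrg1 at 1.30 and Slc16a3 at 1.09, beside 1.11% of all features. The HIF alpha subunits did not follow, with Hif1a and Epas1 slightly lower in KO lung 2 by -0.03 and -0.01. Pfkfb4, Slc2a3 and Ddit4 were also lower in KO lung 2, by -0.28, -0.21 and -0.20. Both lungs came from slide 3 and their files carry the same name number, 4838, whose meaning is not given. KO lung 1 had the fewest probes above background and KO lung 2 the most. Their summed cardiac muscle markers were 49.2 and 48.7, erythroid markers 255 and 247, lung epithelial markers 341 and 371, and proliferation markers 74.1 and 59.8. The part of the share of probes above background and of cell makeup in the gap was not tested.

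**Figure D4:**
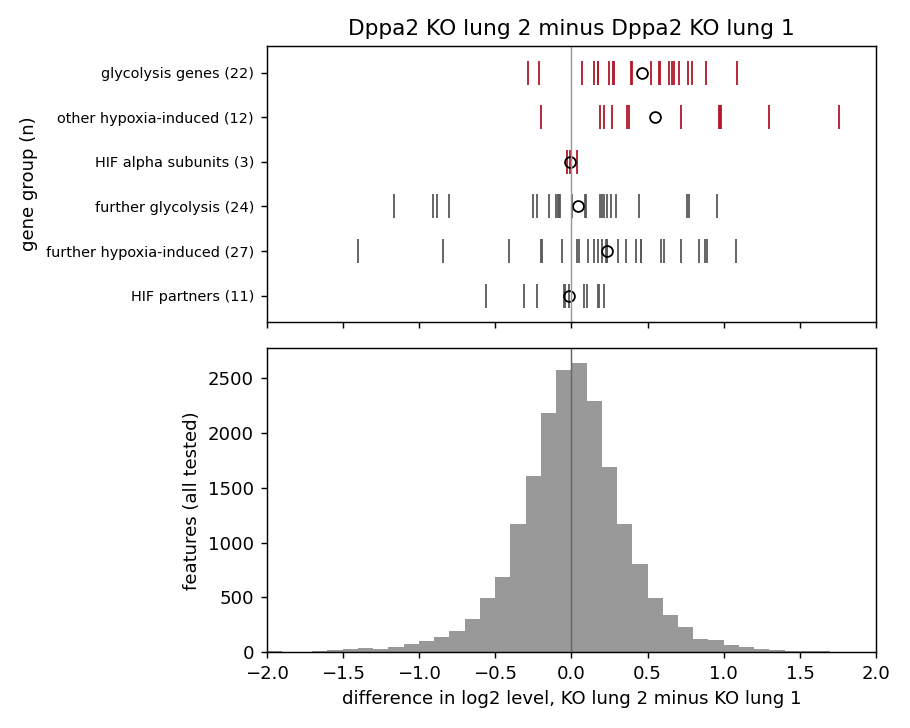
Distribution of KO lung 2 minus KO lung 1 (log2, horizontal axis) over all 19855 features and over the gene groups. The row of glycolysis genes pools transporters, enzymes, pyruvate and lactate genes, and regulators. Of its 22 genes, 20 lie to the right of 0, with a median of 0.46, and Slc2a3 and Pfkfb4 lie to the left. The features as a whole centre on 0.01.

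Of 72 further genes of these pathways, 62 were measured, and they show what the 37 genes leave out. Among 24 further genes of glycolysis and pyruvate use, 1 fell and 0 rose. Pgam2, the muscle form of phosphoglycerate mutase, read -0.13, -1.02 and -0.92 in the KO lungs, against 1.53, 2.13 and 1.19 in the WT lungs. All KO lungs were far below all WT lungs, by -2.30 ± 0.31 or 4.93-fold (limma adjusted p = 0.0268). The call was lost without KO lung 2 (adjusted p = 0.0828, limma), WT lung 1 (0.119) or WT lung 2 (0.0836). The 16 measured cardiac muscle markers were lower in the same KO lungs, with differences from -2.44 to -0.29 and a median of -1.52. Their part in the Pgam2 result was not tested. Slc2a4, the insulin-responsive transporter GLUT4, had a difference of 0.62 ± 0.24 (limma adjusted p = 0.16) and Mpc1, a subunit of the mitochondrial pyruvate carrier, one of -0.30 ± 0.12 (limma adjusted p = 0.18).

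Among 27 further hypoxia-induced genes 0 passed the test, 18 had a difference above 0, and the median was 0.06. Plod2, a collagen lysyl hydroxylase, read 0.21, 0.67 and 0.33 in the KO lungs and -0.28, -0.50 and -0.14 in the WT lungs, a difference of 0.71 ± 0.16 (limma adjusted p = 0.0671). Angptl4, a secreted inhibitor of lipoprotein lipase, read 4.22, 3.81 and 2.97 in the KO lungs, against 2.43, 2.29 and 2.61 in the WT lungs, a difference of 1.23 ± 0.30 (limma adjusted p = 0.0776). Both had all KO lungs above all WT lungs. The Angptl4 difference was 1.58 without KO lung 3, which passed (limma adjusted p = 0.0194). In that setting both KO lungs were on slide 3 and all WT lungs on slides 1 and 2, so slide and genotype could not be told apart. There 436 of 19965 features passed. With the slide as a block, and all lungs kept, the Angptl4 difference was 0.61 (limma adjusted p = 0.268). Only slide 1 held both groups, so the block estimate is the difference within slide 1 and not a separate check. On slide 1 only the WT lungs had Y-linked signal above background. Between KO lung 3 and WT lung 3 the Angptl4 difference was 0.36. For Plod2 the difference was 0.80 without WT lung 3, which passed (limma adjusted p = 0.0458). In that setting every remaining WT lung and no KO lung had Y-linked signal, and 1929 of 20053 features passed. The Plod2 difference was 0.73 within slide 1 and 0.47 between KO lung 3 and WT lung 3. Stc2, a secreted glycoprotein of calcium and stress handling, had a difference of 0.70 ± 0.24 (limma adjusted p = 0.136). KO lung 2 exceeded KO lung 1 in 21 of the 27, with a median gap of 0.23, and in 13 of the 24 further glycolysis genes.

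Among 11 HIF partners and regulators 0 passed the test. Arnt2, an alternative partner of the alpha subunits, read -3.30, -3.61 and -3.85 in the KO lungs, against -4.64, -4.28 and -4.00 in the WT lungs, a difference of 0.72 ± 0.21 (limma adjusted p = 0.0983). Cited2, which competes with HIF for the coactivator p300, read 2.62, 2.80 and 2.94 in the KO lungs and 3.38, 3.65 and 2.98 in the WT lungs, a difference of -0.55 ± 0.19 (limma adjusted p = 0.133). For Arnt2 the KO lungs all lay above the WT lungs and for Cited2 all below, though KO lung 3 and WT lung 3 were only 0.15 and -0.04 apart. Without WT lung 3 the Cited2 difference was -0.73 and passed (limma adjusted p = 0.0416). Here too every remaining WT lung and no KO lung had Y-linked signal, and 1929 of 20053 features passed. Egln2, the prolyl hydroxylase PHD1, differed by -0.23 ± 0.10 (limma adjusted p = 0.188).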

How the data were processed

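Total RNA of 6 lungs was labelled with Cy3 and hybridised to 1-colour Agilent whole mouse genome arrays, per the labels. Per the file headers, Agilent Feature Extraction 10.7.3.1 gave a background-subtracted intensity per spot, with no scaling between arrays. The deposited log2 table of the authors matched quantile-normalized intensities (correlations of 0.991 to 0.996 per array) set relative to the WT median, and served as an alternative. KO columns of it had medians of 0.0108, -0.00703 and -0.000876, and the authors' scaling method is not given in the sources used here.

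Control and outlier spots were left out (77 to 110 outlier spots per array; no spot was saturated). Log2 intensity minus the array's 75th percentile was averaged over spots of a probe. Names came from RefSeq (GRCm38.p6) for 26690 of 41174 probes. A probe was kept where every array of either group had it well above background (26655 probes), and a gene was represented by its probe of highest mean over the 6 arrays. The 37 members had 58 probes, 56 past this filter. limma 3.58.1 in R 4.3.3 compared Dppa2 KO with WT without covariates (two-sided, Benjamini-Hochberg over 19855 features, after tests on simulated data). Named were all members, plus, of each further list, the changed genes and the 3 of smallest p. Members and lists were chosen with earlier results of these data known. The planned normexp alternative used the median in place of the mean spot signal. Precision is limited by the number of arrays, 3 per group. Alternatives tried were other scalings, filters, probe choices, blocks and leaving out each lung.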

Additional observations from a re-analysis of the deposited data

How the results depend on the processing

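Of 20 alternatives, the count of changed members stayed at 0 except with the number in the file names as a random block, which gave 2 (Epas1 at -0.47, limma adjusted p = 0.0466, and Pfkfb4 at -0.66, limma adjusted p = 0.0432), and when lungs were left out, which gave 0 to 1 (Pfkfb4 without WT lung 3). The file name number was 4838 for KO lungs 1 and 2, 4839 for WT lungs 1 and 2, and 4938 for KO lung 3 and WT lung 3. Only 4938 was thus shared by the groups, and between its lungs the differences were smaller, -0.18 for Epas1 and -0.31 for Pfkfb4. The count of changed features, 266, was 96 when a probe had to be above background on at least 1 array, 28 with no filter on dim probes, 54 with the replicate block, 23 with the slide as a block, 17 with a term for the arrays with Y-linked signal, and 1702 when that number in the file names was the random block. Leaving out each lung gave 27 (without WT lung 1) to 1929 (without WT lung 3). The count of changed further pathway genes, 1, was 0 with each of the first 2 filters, with the replicate block, the slide block and the Y-linked term, 4 with the file name number, and 0 to 4 over the left-out lungs. Same-numbered KO and WT lungs did not deviate together (correlations of -0.02, 0.04 and 0.03). These are deviations from means of 3 lungs, so a litter or day shared by same-numbered lungs was not tested. Pgam2 kept its call in 12 of the 20 alternatives, between -2.75 and -1.88. No member's call turned direction, but the sign of an uncalled difference turned in 62 of 740 cases. Median scaling moved the median of all features to -0.12 and that of the enzymes to -0.21. Counts of the pattern over KO lungs 1 and 2 were recomputed under settings chosen after seeing the data: non-overlapping members numbered 11 instead of 4 under median scaling (beside 7338 of 19855 features), genes highest in KO lung 2 and lowest in KO lung 1 numbered 7 to 13, genes with the wider KO range 24 to 29, and genes higher in KO lung 2 than KO lung 1 numbered 31 to 34. The 3 lungs per group limit the precision, and sex, slide and genotype were only partly separable.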

Other observations

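Vegfa, the growth factor of vessels and a textbook HIF target, read 4.18, 4.23 and 4.51 in the KO lungs, against 4.47, 4.42 and 4.31 in the WT lungs, a difference of -0.09. Its groups overlapped, and it was named after its value was seen.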
